A study of Mus musculus with 6 samples.

Results

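The CREB family, its CRTC coactivators and the SIK kinases were examined as 9 genes taken by name from the count table, namely Crem, Creb1, Atf1, Crtc1, Crtc2, Crtc3, Sik1, Sik2 and Sik3. All 9 were among the 12431 genes in the table, and 8 of them passed the filter on low counts that left 10514 genes for testing. Sik2 did not pass. RNA was sequenced from splenic follicular B cells of adult male mice, sorted as CD21/35- CD23+ and kept for 1 h in complete RPMI without added stimulus. The groups were WT (Gpr174+/Y) and KO (Gpr174-/Y), each with 3 libraries from separate mice. In KO mice a tdTomato reporter sits in place of the only exon that codes for GPR174, a receptor encoded on the X chromosome that couples to Gαs, and the deletion is in every cell rather than in B cells alone. The comparison of WT with KO asks which of these genes differ with the loss of GPR174 after 1 h of culture. All 6 libraries were taken at 1 h. In them, a difference already present at the sort cannot be told apart from one that arose in culture.

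Gαs raises cyclic AMP, which activates protein kinase A (PKA). PKA phosphorylates CREB1, ATF1 and the activator forms of CREM, which are bZIP transcription factors bound to the cAMP response element (CRE) of their target genes, and phosphorylation lets them recruit the acetyltransferases CBP and p300. CRTC proteins are coactivators of these factors. In resting cells the SIK kinases phosphorylate CRTCs and class IIa histone deacetylases and so hold them in the cytoplasm bound to 14-3-3 proteins, and PKA relieves this by phosphorylating the SIKs. Crem and Sik1 are themselves known as cAMP-inducible genes, and both can feed back on the pathway: an internal promoter of Crem makes the short repressor ICER, and SIK1 acts on CRTCs. The other 7 members are regulated mainly after translation and are called constitutive here.

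The element that these factors bind is shown first, in the places where the 300-base RefSeq promoters (spanning the start site, build GRCm38.p6) hold it. The letters searched were TGACGTCA for the full CRE and TGACG on either strand for the short element, which every full CRE contains. Promoters were matched for 6 of the 9 members, Creb1, Atf1, Crtc1, Crtc3, Sik2 and Sik3, all constitutive. The inducible members Crem and Sik1 and the constitutive Crtc2 were not matched. None of these 6 held the full CRE, which was found in 1.79% of all 32851 promoters, and 3 of the 6 held a short element, found in 20.8%. Among tested genes with a promoter the shares were 3.90% and 37.0%. The windows of Atf1 and Sik3 upstream of the start are printed here because they show the element as constitutive members carry it, with the short elements in capitals. Atf1 lies at chr15:100227749-100227793 on the plus strand, and Sik3 at chr9:46012667-46012787 on the plus strand, with short elements beginning 133, 116 and 57 bases before its start.
Atf1: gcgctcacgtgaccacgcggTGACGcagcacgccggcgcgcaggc
Sik3: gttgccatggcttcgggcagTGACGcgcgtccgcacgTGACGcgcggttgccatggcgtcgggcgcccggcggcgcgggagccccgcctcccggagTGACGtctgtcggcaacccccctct

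Of the CREB target genes that were higher in WT, 10 had a promoter, and 3 of these held a full CRE. The 3 windows are printed with the 8 bases of the CRE in capitals. They were chosen after their values were seen, as target genes higher in WT that held a full CRE. Because of that choice, a contrast with the windows of the constitutive members is fixed in advance and shows nothing. Btg2 lies at chr1:134079294-134079341, Dusp1 at chr17:26508588-26508635 and Ppp1r15a at chr7:45526269-45526300, all on the minus strand. Of the 7 genes outside the members whose profiles were most like those of Crem or Sik1, 3 had a promoter. Plk2, whose profile was like that of Sik1, was the 1 of these 3 with a full CRE, at chr13:110394962-110395009 on the plus strand. So few promoters give counts and not a comparison.
Btg2: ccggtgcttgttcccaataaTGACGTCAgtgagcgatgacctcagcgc
Dusp1: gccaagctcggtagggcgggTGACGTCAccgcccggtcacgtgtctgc
Ppp1r15a: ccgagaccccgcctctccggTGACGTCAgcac
Plk2: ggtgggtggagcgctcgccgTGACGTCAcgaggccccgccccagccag
A match of letters is a description of the window and not a bound site.

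Total counts ranged from 8452460 to 10944833 per library. Levels are given as CPM, where each count was set against the TMM-scaled size of its library, and are compared only within a gene. Reads come from the 3′ ends of transcripts. Reads assigned to Gpr174 were 136, 125 and 121 CPM in WT and 99.8, 100.2 and 99.8 CPM in KO, a log2 fold change (WT over KO) of 0.35 ± 0.09 (SE, edgeR adjusted p = 0.0359). The call was lost without WT replicate 1 (0.31, adjusted p = 0.162), without WT replicate 3 (0.39, 0.0513) and without KO replicate 1, 2 or 3 (0.35 in each, 0.132, 0.138 and 0.168). Because reads remained in KO and the counts do not say in which part of the gene they lie, this gene was a limited check of the genotype labels. Markers of follicular B cells were present in every library at different levels, with Pax5 at 7.41 to 15.3, Cd79a at 44.5 to 58.0, Cd79b at 720 to 1015, Ms4a1 at 1274 to 1413 and Fcer2a, which encodes CD23, at 403 to 571 CPM. Cr2, which encodes CD21/35, was also present, at 981 to 1166 CPM, although the label of the gate is CD21/35-.

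The 2 inducible members, Crem and Sik1, were higher in WT, each by about the same factor, and the 6 constitutive members tested did not pass the test. Thus 2 of 8 tested members were higher in WT, where 1.3% of all tested genes were (137 of 10514). The members were chosen with earlier results of these data known, so this share is not independent evidence about the family. Among the members, 0 were lower in WT by edgeR at the adjusted threshold of 0.05, where 0.514% of all genes were (54 of 10514). At an unadjusted p under 0.05, 0 members were lower, where 5.37% of all genes were. DESeq2 and limma-voom called the same number of members, 2. The median log2 fold change of the 8 was 0.01, and that of all tested genes was -0.003.

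**Figure D1:**
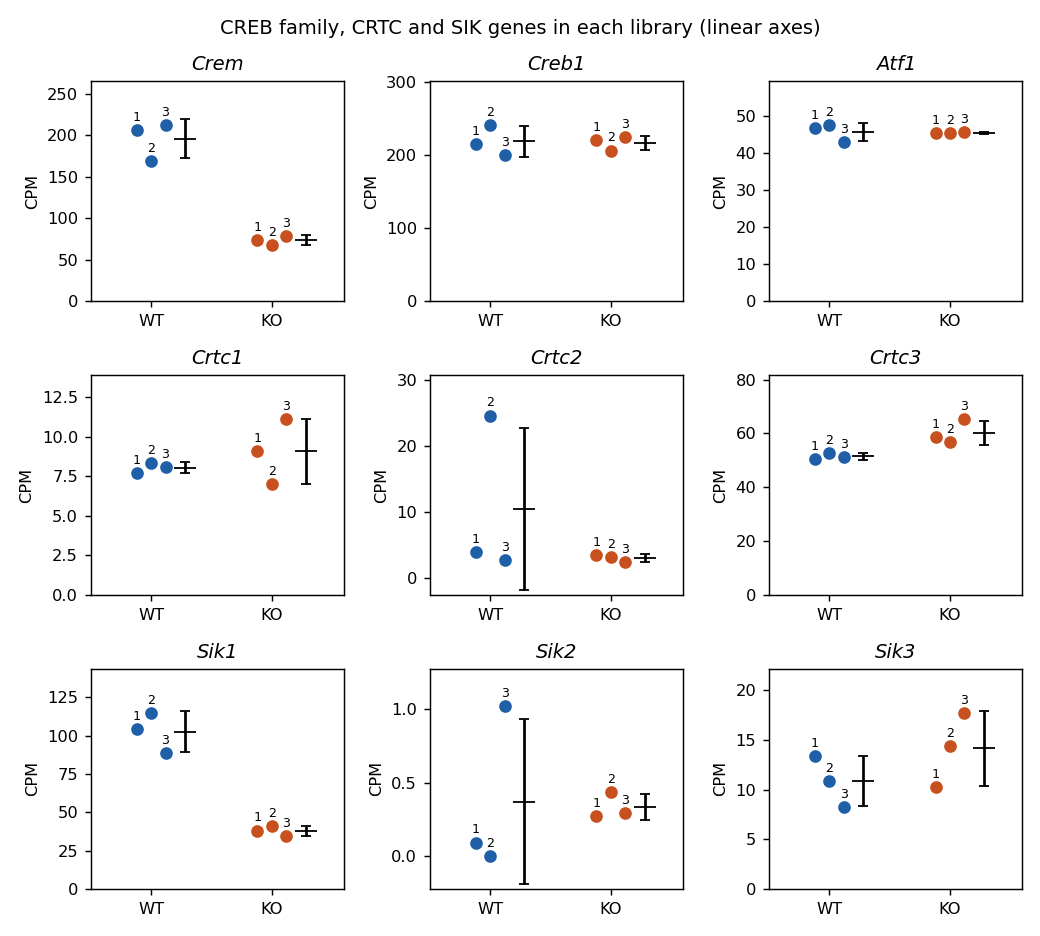
CPM of each member in the 3 WT (blue) and 3 KO (orange) libraries on linear axes, with replicate numbers above the points and black bars for the mean ± SD. The WT libraries sit above all KO libraries for Crem and Sik1 and below them for Crtc3, and WT replicate 2 stands alone for Crtc2.

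Crem, on chr18:3266048-3337748 (mm10, minus strand), encodes the cAMP response element modulator. It was at 206, 170 and 212 CPM in WT and 74.5, 67.7 and 79.1 CPM in KO. The groups did not overlap, and the lowest WT library was 2.14 times the highest KO library. Such separation with WT on top was seen in 8.43% of all tested genes. The means were 196 ± 23.2 CPM in WT and 73.7 ± 5.71 CPM in KO (SD, n = 3 each), which puts the KO mean at 37.6% of that in WT. The log2 fold change was 1.41 ± 0.10 (SE, 95% interval 1.21 to 1.61, edgeR adjusted p = 1.71e-10), a fold of 2.66, and its p ranked 3 among the 10514 genes. With 5548 counts in WT and 2250 in KO, Crem was deeply counted. In bulk RNA, fewer cells expressing a gene and less RNA per cell cannot be told apart.

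The counts did not separate the activator and repressor products of Crem. The GENCODE annotation of mm10 gives the gene 39 transcripts, of which 32 are coding and begin at 21 different start sites, while only 8 of the coding ones end within 1000 bases of the farthest end. Reads from the 3′ ends were summed into 1 row per gene, so ICER and the full-length activators share the value. The strand used in counting was not stated, and a transcript on the opposite strand, Gm6225, overlaps the gene.

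Sik1, on chr17:31844250-31855804 (minus strand), encodes salt-inducible kinase 1. Its levels were 104, 115 and 88.9 CPM in WT and 38.1, 41.0 and 34.6 CPM in KO. Every WT library was above every KO library, by a factor of at least 2.17. Separation in this direction, by any factor, was seen in 8.43% of all tested genes. The means were 103 ± 13.2 and 37.9 ± 3.20 CPM (SD, n = 3 each), with KO at 36.9% of WT. The log2 fold change was 1.44 ± 0.12 (95% interval 1.20 to 1.68, edgeR adjusted p = 3.45e-09), a fold of 2.71, with a p that ranked 5. By the size of their fold change, Sik1 and Crem ranked 73 and 75 among all 10514 tested genes. Among the 8554 that averaged 50 or more counts per library, they ranked 13 and 14.

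Creb1 (chr1:64532645-64604548, plus strand) and Atf1 (chr15:100227819-100261244, plus strand) encode the factors that PKA phosphorylates. Creb1 was at 215, 241 and 199 CPM in WT and 220, 206 and 224 CPM in KO. The groups overlapped, and the log2 fold change was 0.01 ± 0.08 (95% interval -0.15 to 0.18, edgeR adjusted p = 0.976), which limits the fold to between 0.899 and 1.13. Atf1 was at 46.8, 47.6 and 43.0 CPM in WT and 45.3, 45.4 and 45.7 CPM in KO. Its log2 fold change was also 0.01, with a wider interval (-0.24 to 0.26, adjusted p = 0.986) and a fold between 0.847 and 1.20. For both factors the intervals lie well below the folds of Crem and Sik1. The signs of such small values were not stable when single libraries were left out.

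**Figure D2:**
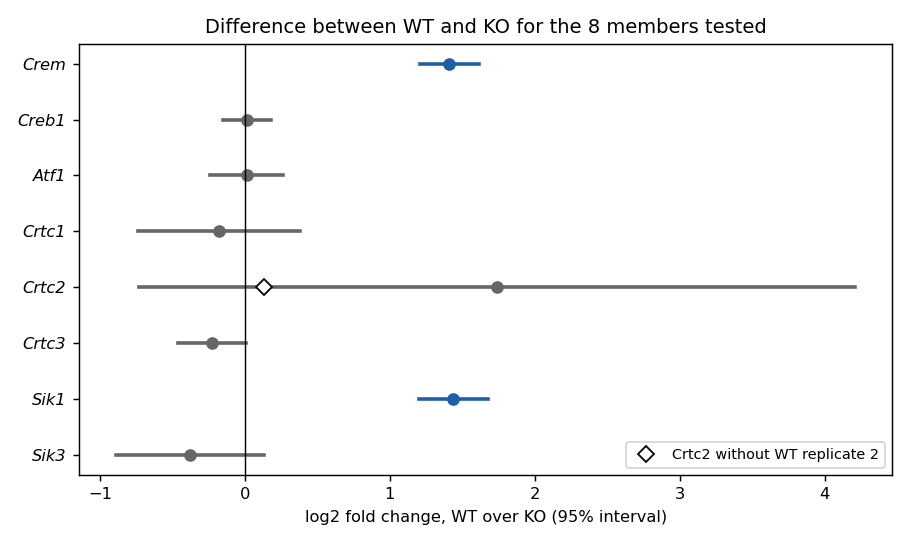
Log2 fold change (WT over KO) of the 8 tested members with 95% intervals from edgeR; blue marks an adjusted p under 0.05 and the open diamond gives Crtc2 without WT replicate 2. The intervals of Crem (1.21 to 1.61) and Sik1 (1.20 to 1.68) do not reach the upper bounds of Creb1 (0.18) and Atf1 (0.26).

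None of the 3 CRTC coactivators passed the test. Crtc3 (chr7:80586627-80688877, minus strand) was lower in each WT library than in each KO library, at 50.5, 52.8 and 51.2 CPM in WT and 58.5, 56.8 and 65.4 CPM in KO. Separation in this direction was seen in 8.28% of all tested genes. Its log2 fold change was -0.23 ± 0.11 (95% interval -0.46 to 0.01, edgeR adjusted p = 0.441). The annotation places Gm44931 on the same strand and Gm15880 on the opposite strand within it, so some of its reads could belong to those. Crtc1 (chr8:70382355-70439579, minus strand) was thinly counted, at 7.68, 8.35 and 8.06 CPM in WT and 9.10, 6.98 and 11.1 CPM in KO. Its groups overlapped, and the log2 fold change of -0.18 had an interval from -0.74 to 0.38 (adjusted p = 0.858).

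Crtc2 (chr3:90254163-90264125, plus strand) had the largest fold change of the members, and it came from 1 library. Its counts were 44, 206 and 24 in WT and 39, 30 and 25 in KO, which is 4.03, 24.6 and 2.72 CPM against 3.55, 3.27 and 2.44 CPM. WT replicate 2 was 6.10 times the next highest library, while the other 5 libraries lay within 2.44 to 4.03 CPM. The log2 fold change was 1.74 ± 0.96 (95% interval -0.73 to 4.21, edgeR adjusted p = 0.588). Without WT replicate 2 it was 0.13 ± 0.48 (adjusted p = 0.957), with means of 3.38 CPM in WT and 3.09 CPM in KO. Of all 10514 tested genes, none exceeded Crtc2 in the ratio of WT replicate 2 to the highest other library, with 1 CPM added to both. That library stood apart in other genes as well: 39 genes were at least 2-fold above every other library at 5 CPM or more, compared with 0 to 4 genes in each of the other 5. It also had the smallest total count, 8452460, and the fewest genes detected, 11602 against 11917 to 12011 in the other 5. The part of this library's difference in the Crtc2 value was not tested beyond leaving it out. Crem and Sik1 without it kept log2 fold changes of 1.50 and 1.35.

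Sik3 (chr9:46012820-46224194, plus strand), a constitutive SIK, was at 13.4, 10.9 and 8.29 CPM in WT and 10.3, 14.4 and 17.7 CPM in KO. The groups overlapped, and the log2 fold change of -0.38 ± 0.25 had an interval from -0.89 to 0.13 (edgeR adjusted p = 0.605). Sik2 (chr9:50892801-51009073, minus strand) was near the limit of detection, with 1, 0 and 9 counts in WT and 3, 4 and 3 in KO. A difference was not detectable at this depth, since with no filter its log2 fold change was 0.14 with an interval from -2.94 to 3.22. Of the 2 SIK genes tested, Sik1 passed and Sik3 did not.

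The contrast between inducible and constitutive members was also taken within each library, as the log2 ratio of Crem or Sik1 to the geometric mean of the 7 constitutive genes (prior count 2). For Crem it was 3.97, 3.39 and 3.91 in WT and 2.42, 2.24 and 2.39 in KO, a difference of 1.41. For Sik1 it was 2.99, 2.83 and 2.66 in WT and 1.46, 1.52 and 1.20 in KO, a difference of 1.43. Neither ratio overlapped between the groups. This largely restates the separation of Crem and Sik1 given above and is not further support for it. Leaving out Crtc2 and Sik2, a choice made after seeing the data, gave 1.55 for Crem and 1.57 for Sik1.

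Ratios of single genes were also taken, and those of Crem or Sik1 to a constitutive member again largely restate the levels of Crem and Sik1. Crem to Creb1 was 0.960, 0.705 and 1.07 in WT and 0.339, 0.329 and 0.353 in KO. Crem to Atf1 was 4.40, 3.56 and 4.94 in WT and 1.64, 1.49 and 1.73 in KO. Sik1 to Sik3 was 7.81, 10.6 and 10.7 in WT and 3.71, 2.85 and 1.95 in KO. These numbers serve to compare libraries and do not say which of the paired genes was the more abundant. By contrast, Sik1 to Crem, a ratio looked at after the values were seen, was 0.506, 0.679 and 0.418 in WT and 0.512, 0.605 and 0.438 in KO. Its means, 0.534 ± 0.132 and 0.518 ± 0.0840 (SD, n = 3 each), differed by less than the spread within either group. In both groups the library with the lowest Crem had the highest Sik1, and the library with the highest Crem had the lowest Sik1.

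**Figure D3:**
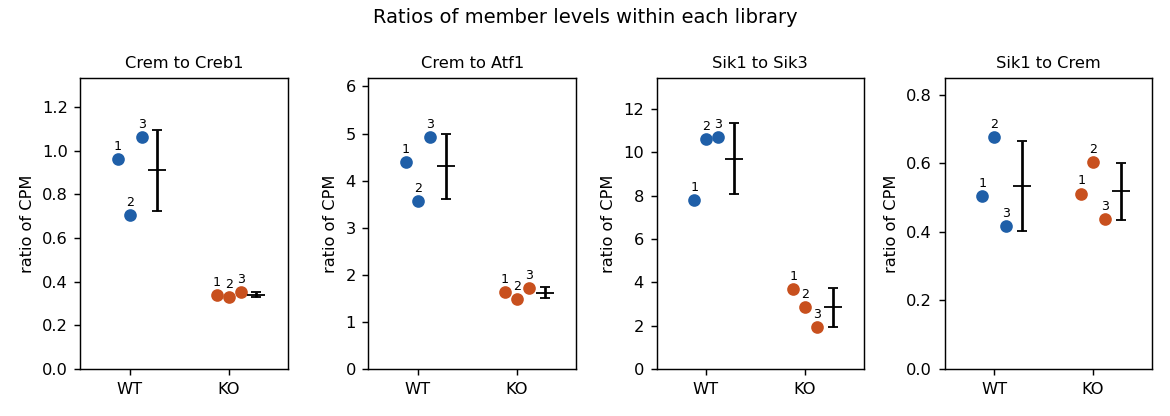
Ratio of the CPM of member genes in each library, with replicate numbers above the points and black bars for the mean ± SD. Crem to Creb1, Crem to Atf1 and Sik1 to Sik3 separate WT from KO, while Sik1 to Crem overlaps between the groups (0.418 to 0.679 in WT, 0.438 to 0.605 in KO).

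The genes whose profiles over the 6 libraries were most like those of the inducible members were found from mean-centred log2 CPM, by the root mean square difference among 8553 genes. For Crem these were Plcxd2 (0.20), Rnf125 (0.22), Sik1 (0.24) and Vps37b (0.25), where Rnf125 encodes a ubiquitin ligase and Vps37b a subunit of the ESCRT-I sorting complex. For Sik1 they were Pvr (0.17), Nr4a1 (0.18), Ier2 (0.19) and Plk2 (0.22), of which Nr4a1 encodes the orphan receptor NUR77, Ier2 is an immediate early gene and Plk2 encodes a polo-like kinase. Sik1 was therefore the third nearest profile to Crem, but Crem was not among the 4 nearest to Sik1. All of these genes passed the test, and their log2 fold changes were 1.10 for Plcxd2, 1.51 for Rnf125, 1.01 for Vps37b, 1.23 for Pvr, 1.69 for Nr4a1, 1.12 for Ier2 and 1.75 for Plk2. A direction of this kind follows from how likeness was measured.

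**Figure D4:**
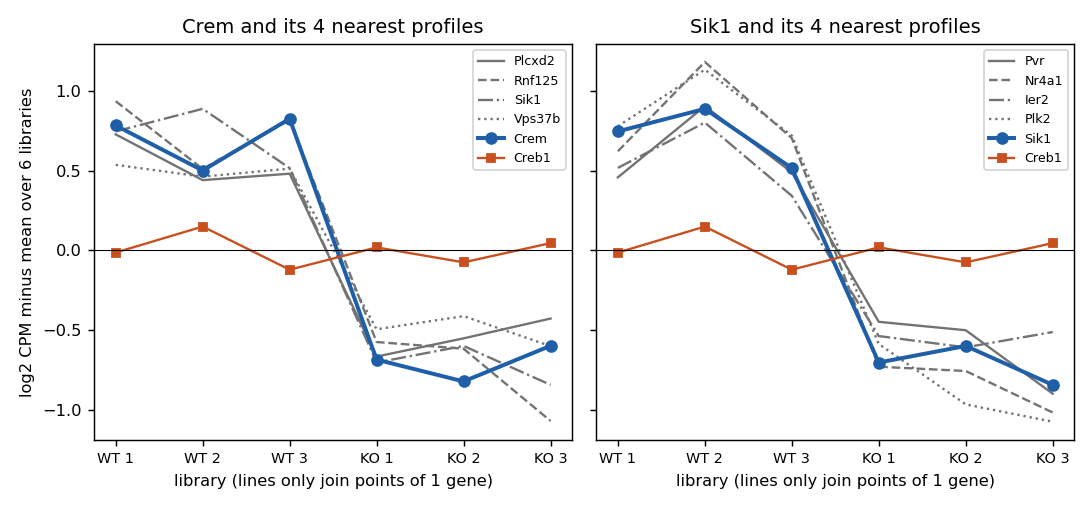
Log2 CPM minus the gene's mean over the 6 libraries, for Crem (left) and Sik1 (right) in blue, the 4 nearest profiles in grey and Creb1 in orange; the lines only join points of the same gene. The nearest profiles follow the step between WT and KO, and in WT replicate 2 Crem dips while Sik1 and its neighbours peak.

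The other genes of the pathway were read from lists of the proteins around these members. Of 12 tested CREB kinases and acetyltransferases, 0 passed the edgeR test in either direction, with a median log2 fold change of -0.08. The smallest p belonged to Ep300, the gene for p300, at 0.10 ± 0.08 (adjusted p = 0.684). Of 15 tested regulators of SIKs and CRTCs, which include the kinase LKB1 with its partners, calcineurin subunits and 14-3-3 proteins, 0 passed, with a median of 0.06. There the smallest p was that of Cab39, which encodes the LKB1 partner MO25, at 0.16 ± 0.10 (adjusted p = 0.552). Of 7 tested kinases related to SIKs, 0 passed, and Mark3 had the smallest p, at -0.16 ± 0.10 (adjusted p = 0.601). In these 3 lists 0 genes had an unadjusted p under 0.05, against 11.9% of all tested genes, and DESeq2 and limma-voom also called 0.

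Class IIa histone deacetylases, the other substrates of SIKs, had 0 of 4 genes past the edgeR threshold and a median of -0.13. Hdac7 was at 219, 196 and 228 CPM in WT and 256, 238 and 237 CPM in KO, and the groups did not overlap, as in 8.28% of all tested genes with WT below KO. Its log2 fold change of -0.18 ± 0.08 had an edgeR adjusted p of 0.333, and it was the 1 gene of the 4 with an unadjusted p under 0.05, against 11.9% of all tested genes. Among 12 other bZIP factors that can bind the CRE, 0 passed, with a median of -0.08. Crebzf, at 0.23 ± 0.11, had the smallest p of the list (edgeR adjusted p = 0.402), and 2 of the 12 had an unadjusted p under 0.05, 1 in each direction, where 11.9% of all tested genes did. DESeq2 and limma-voom called 0 genes in either list.

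Some target genes of CREB differed, and others did not pass. Of 21 tested, 11 were higher in WT and 0 were lower by edgeR, against 1.3% and 0.514% of all tested genes, and 16 had a positive log2 fold change. At an unadjusted p under 0.05, 12 were higher and 1 was lower, against 6.5% and 5.37% of all tested genes. The median of the 21 was 0.58. The 10 that did not pass included Egr1 (-0.39 ± 0.34, edgeR adjusted p = 0.762), Fosb (-0.44 ± 0.39, 0.767) and Nr4a3 (0.80 ± 0.46, 0.521). Mcl1, at -0.23 ± 0.07 (adjusted p = 0.0888), was the 1 lower at the unadjusted threshold. This list was drawn up with results of these libraries known and is not independent evidence of a direction.

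The 6 target genes with the smallest p included regulators of transcription and an enzyme that ends cAMP signals. Junb, an AP-1 subunit, was at 822, 869 and 907 CPM in WT and 428, 452 and 396 CPM in KO, a log2 fold change of 1.03 ± 0.07 (edgeR adjusted p = 1.33e-10). Nr4a2, an orphan nuclear receptor, was at 216, 277 and 248 CPM in WT and 53.7, 77.3 and 65.6 CPM in KO, a change of 1.92 ± 0.12 (adjusted p = 4.49e-09). Pde4b, a phosphodiesterase that degrades cAMP, was at 1589, 1550 and 1642 CPM in WT and 1121, 1046 and 1037 CPM in KO, a change of 0.58 ± 0.06 (adjusted p = 3.91e-07). In these 3 genes, and in each of the other target genes that passed, every WT library was above every KO library. Such separation was seen in 8.43% of all tested genes. The other 3 of the 6 were Rgs2, a regulator of G protein signalling (0.88 ± 0.08), Ier2 (1.12 ± 0.10) and Btg2, an antiproliferative gene (0.65 ± 0.07). The remaining 5 that passed ranged from 0.57 to 1.69.

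**Figure D5:**
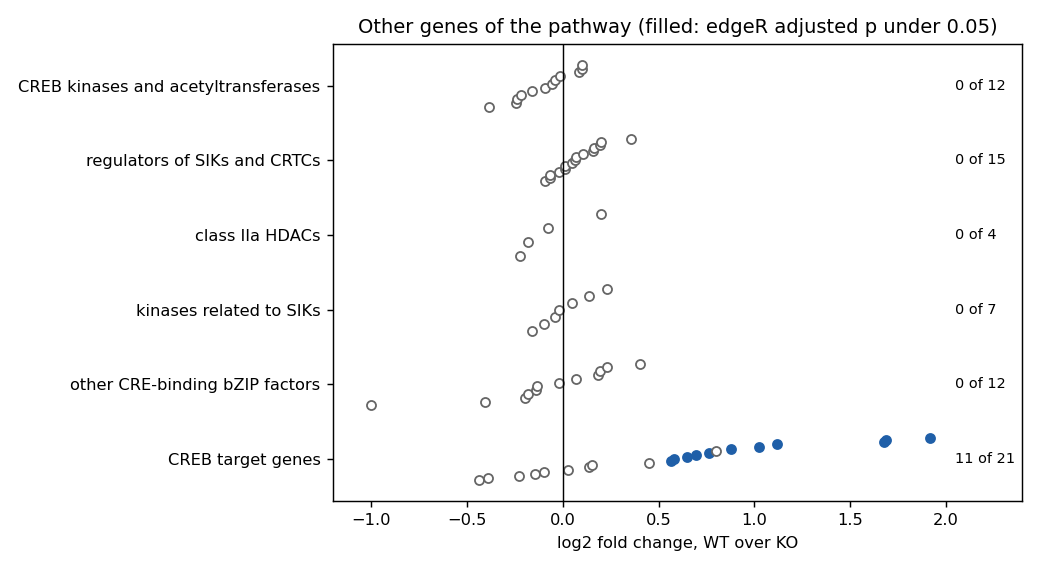
Log2 fold change (WT over KO) of each tested gene in 6 lists, with filled points for an edgeR adjusted p under 0.05 and the number passing at the right. No point is filled in the first 5 lists, and 11 of 21 are filled among CREB target genes.

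The promoters of the target genes were also counted. Of the 11 target genes higher in WT, 10 had a promoter in the RefSeq table, 3 of them with a full CRE (Btg2, Dusp1 and Ppp1r15a) and 9 with a short element. Of the 10 that did not pass, 7 had a promoter, 0 with a full CRE and 6 with a short element. The shares over tested genes, 3.90% and 37.0%, are over 7633 genes with a promoter. With so few promoters these are counts and not a comparison.

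Markers of other cell types were counted in the same libraries, and by edgeR 0 of the 22 tested genes in 6 such lists passed the test. Gzma and the plasma cell marker Jchain were the 2 with an unadjusted p under 0.05, which 11.9% of all genes had. The summed level of 6 follicular B markers was 3475 to 3613 CPM in WT and 3887 to 4048 CPM in KO, and 1 of the 6, Cd79b, passed the test as lower in WT. The 4 NK cell markers in the table summed to 7.27 to 13.2 CPM in WT and 5.85 to 6.0 CPM in KO. Most of that gap was Gzma, at 4.67 to 6.68 CPM in WT and 2.40 to 2.91 CPM in KO. Nkg7 overlapped, at 0.681 to 2.27 CPM in WT and 1.64 to 2.15 CPM in KO. All 4 had reads in every library, but Klrb1c (5 to 16 counts) and Prf1 (2 to 20 counts) did not pass the filter on low counts. Sums of 5 T cell markers (4.28 to 11 CPM, with Cd3g at 0 in KO replicate 1), 7 myeloid markers (38.0 to 57.8 CPM), 5 marginal zone B markers (517 to 576 CPM) and 4 plasma cell markers (104 to 127 CPM) overlapped between the groups. Log2 fold changes were positive for 6 of 6 tested myeloid markers (median 0.42) and 3 of 3 tested T cell markers (median 0.36). They were positive for 3 of 5 marginal zone B and 3 of 4 plasma cell markers. The 2 erythroid markers, Hbb-bs and Alas2, summed to 2674 to 4707 CPM in WT and 3007 to 7549 CPM in KO. The part of these differences in the values of Crem and Sik1 was not tested.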

How the data were processed

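The deposited table gives the raw count of reads for each gene and sample, not normalized. Per the study's methods, libraries were made with a 3′ kit, and the authors aligned single-end reads to mm10 with STAR and counted them with HTSeq. Versions, annotation and strand setting are not given in the sources used here. Samples were grouped by their titles. Of the sample columns, 0 were left unused. Totals ranged from 8452460 to 10944833 counts, and reads carry no molecular identifiers. Replicates differed beyond counting noise (chi-square 6.89 to 10.9 per degree of freedom), and all were kept.

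Genes were filtered with filterByExpr, scaled by TMM and tested, WT against KO, with the robust quasi-likelihood F test of edgeR 4.0.16 (R 4.3.3), two-sided, without covariates, with Benjamini-Hochberg adjustment over all 10514 genes and a threshold of 0.05. Standard errors are |log2 fold change| / √F. Simulated counts were used to test the scripts. Alternatives used DESeq2 1.42.0, limma-voom (limma 3.58.1), ordinary dispersions, RLE or upper-quartile factors, library totals, a stricter filter (mean count of 50) or none, removal of the 50 genes with most counts, a replicate block, removal of each library in turn and a threshold of 0.01.

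Genes named were all members, Gpr174, in each list up to 6 genes past the threshold or, with none, the smallest p, and the 4 nearest profiles to Crem and to Sik1 among genes averaging 50 or more counts (prior count 2). Members and lists were chosen with earlier results of these data known, and 1 marker gene is not reported here. Positions are from GENCODE and promoters from RefSeq.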

Additional observations from a re-analysis of the deposited data

How the results depend on the processing

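Crem and Sik1 stayed higher in WT and past the threshold under all 16 alternatives, with log2 fold changes of 1.35 to 1.50 (adjusted p 6.24e-36 to 3.04e-07) and 1.35 to 1.53 (6.52e-25 to 1.35e-06). The number of members called was 2 under each of 17 alternatives. Under the 16 that were run for the lists, which leave out the threshold of 0.01, 9 to 12 CREB target genes and 0 genes of the other 5 lists were called. Crtc2 ranged from 0.13 to 2.19 and passed in no alternative, with no adjusted p from DESeq2. Creb1 changed sign without WT replicate 2 (-0.0639) and without KO replicate 2 (-0.0258), with leave-one-out values of -0.0639 to 0.0707, and Atf1 without WT replicate 1 (-0.00463) and WT replicate 2 (-0.0161), with values of -0.0161 to 0.0529. The cause was not tested. The differences in the ratio of inducible to constitutive members ranged from 1.30 to 1.59 for Crem and 1.34 to 1.57 for Sik1, including omissions chosen after seeing the data.

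The number of genes called, 191 of 10514, fell to 95 at a threshold of 0.01. With 1 library left out, where fewer samples were fitted, it was 91 to 183. The lowest numbers were without KO replicate 3 (91) and KO replicate 2 (113). DESeq2 called 256. Gpr174 ranged from 0.31 to 0.39 with 1 library left out, and its adjusted p from 0.0410 to 0.168. Deviations of same-numbered WT and KO libraries correlated at 0.0498, 0.0136 and 0.0432, so the numbers were not taken as pairs, although each library correlated best with its own number. With the replicate number as a block, 281 genes and 2 members were called, and Crtc2 was at 1.16 (adjusted p = 0.280). Under the other scalings the median over all genes (log2) was no lower than -0.0123. With 10 counts in each group, Sik2 is limited by depth.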
